A study of Mus musculus with 4 samples.

Results

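The genes described here are the enzymes of glycolysis, the transporters and regulators that set its flux, other genes known to be induced by low oxygen, and the oxygen-regulated subunits of the hypoxia-inducible factors (HIF). They were chosen by name: a list of 36 gene symbols, of which 33 were the only symbol of at least 1 probe set on the array. Those 33 genes had 74 of the 45037 probe sets that are not array controls. Gpi1, Eno1 and Bnip3l had no probe set of their own symbol alone and were not analysed here. By role the 33 genes were 12 glycolytic enzymes, 7 transporters and regulators, 12 other hypoxia targets and 2 HIF subunits.

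The 4 arrays (Affymetrix whole-genome mouse arrays, 1 colour) held RNA of mammary tumors from female C57BL/6 mice that all carried the PyV-mT oncogene (polyoma virus middle T), at 110 days of age and 14 days after tumor onset. Tumors labelled St6gal1-/- (null) were, per the labels, from mice without the sialyltransferase that places terminal sialic acid on N-glycans, and the others came from wild-type littermates. Each array held a pool of 3 tumors from 3 animals, with 2 pools per genotype, and the pools were compared in pairs: set 1 is null pool 1 beside wild-type pool 1, and set 2 is null pool 2 beside wild-type pool 2. Pooling hides the spread between animals, and the promoter that drives the oncogene and the part of St6gal1 that was deleted are not given in the sources used here. The question addressed is how the transcripts of tumors that form without the enzyme differ from those of wild-type tumors.

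The deposited values are MAS5 intensities, in array units scaled to the same mean on each array, and a probe set is a group of short probes read as 1 value. The median intensity was between 588 and 619 on the 4 arrays. The brighter probe set of St6gal1 read 2337 and 3642 in the null and 2330 and 2796 in the wild-type pools, no loss. A probe set outside the deleted part checks nothing, so every direction below rests on the labels. The ratio of the 3' to the 5' control probe set of Gapdh, a sign of RNA quality, was 0.873 and 0.869 in the null and wild-type pools of set 1 and 2.13 and 1.57 in those of set 2. This ratio thus differed between the sets and, in set 2, between the genotypes. Its part in the genotype ratios below was not tested. The tissue label held: each of the 14 luminal epithelial markers matched read at least 3094 on every array. Y-linked probe sets, which have no target in female mice, read at most 585, and values at or below this are called unspecific here.

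In glycolysis, glucose enters through transporters such as Slc2a1, is phosphorylated by hexokinase, split by aldolase and oxidised to pyruvate, which lactate dehydrogenase turns into lactate for export by the carriers Slc16a1 and Slc16a3. HIF is a transcription factor of an oxygen-regulated alpha subunit (Hif1a, Epas1) and a constant partner (Arnt). With oxygen, prolyl hydroxylases (Egln1, Egln3) mark the alpha subunit for destruction, and without it the factor binds a short core motif and raises glycolytic genes together with genes for vessel growth, pH control and mitophagy. Solid tumors, mammary tumors among them, are known for high glycolysis and for poorly perfused, hypoxic areas.

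The promoters of 4 genes are shown because they carry the contrast in the results: Ldha and Egln3 were the members that passed the test, one in each direction, and Pgk1 and Car9 are classical HIF targets that did not. Each runs 5' to 3' from 250 bases before to 50 bases after a transcription start, from RefSeq on GRCm38.p6. Capitals mark the HIF core motifs ACGTG and GCGTG and, for the other strand, CACGT and CACGC.
Ldha (chr7:46845554-46845853, plus strand): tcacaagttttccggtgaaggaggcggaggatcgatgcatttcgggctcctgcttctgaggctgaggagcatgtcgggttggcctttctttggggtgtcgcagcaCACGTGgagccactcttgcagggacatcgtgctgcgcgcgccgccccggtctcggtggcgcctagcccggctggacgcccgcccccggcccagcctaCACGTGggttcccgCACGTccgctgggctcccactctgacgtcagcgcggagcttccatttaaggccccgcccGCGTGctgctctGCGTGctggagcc
Egln3 (chr12:54203825-54204124, minus strand): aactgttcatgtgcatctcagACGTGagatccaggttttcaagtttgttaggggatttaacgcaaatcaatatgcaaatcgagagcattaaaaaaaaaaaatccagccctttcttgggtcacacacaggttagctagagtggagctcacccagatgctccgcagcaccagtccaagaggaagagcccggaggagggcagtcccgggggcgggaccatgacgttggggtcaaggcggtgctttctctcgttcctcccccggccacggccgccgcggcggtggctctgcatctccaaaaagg
Pgk1 (chrX:106186850-106187149, plus strand): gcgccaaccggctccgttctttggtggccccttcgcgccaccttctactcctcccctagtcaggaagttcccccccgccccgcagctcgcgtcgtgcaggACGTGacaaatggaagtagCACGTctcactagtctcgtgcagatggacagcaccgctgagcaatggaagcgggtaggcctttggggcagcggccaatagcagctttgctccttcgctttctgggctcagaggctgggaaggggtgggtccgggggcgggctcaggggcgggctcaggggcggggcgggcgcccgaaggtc
Car9 (chr4:43506776-43507075, plus strand): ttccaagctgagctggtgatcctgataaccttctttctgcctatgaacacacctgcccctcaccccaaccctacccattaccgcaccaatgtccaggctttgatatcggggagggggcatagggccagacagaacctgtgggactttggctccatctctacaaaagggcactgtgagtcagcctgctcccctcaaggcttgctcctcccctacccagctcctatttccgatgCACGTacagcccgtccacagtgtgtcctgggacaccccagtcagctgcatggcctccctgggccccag
The Ldha window held 5 separate motif stretches, of which the pair spelled CACGTG is also the E-box and reads as a match on both strands. The Pgk1 window held 2 stretches, and those of Egln3 and Car9 held 1 each. A second Ldha start listed in RefSeq had 2 stretches in its own window.

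Across the whole list, 32 of 36 genes had at least 1 promoter in RefSeq, 48 windows in all, and 29 of the 32 genes (90.6%) held a motif in at least 1 window. The same letters stood in the windows of 52.3% of all protein-coding genes and of 67.9% of the genes tested on these arrays. The median share of G and C was 62.7% in the members' windows and 60.7% in those of the tested genes. Gpi1, Tpi1 and Car12 had no match in any window. By windows 38 of the 48 held one (79.2%), against 61.7% of the windows of the tested genes. Slc2a3, Bnip3l, Ndrg1 and Epas1 had no entry. A match of letters is a description and no evidence of binding, and the motif was present in genes that passed the test in either direction and in most genes that did not pass.

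Of 61 member probe sets bright enough to be tested, 2 passed an adjusted p of 0.05 in limma (Benjamini-Hochberg over all probe sets tested), 1 higher (Ldha) and 1 lower (Egln3) in the null pools. That is 3.28% of the members against 7.3% of all 22519 probe sets tested, where 4.05% were higher and 3.25% lower. The 61 probe sets belonged to 31 genes. The other 13 probe sets, among them all those of Slc2a3 and Slc16a3, lay below the filter, which kept probe sets with a mean intensity at or above the median.

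Most member intervals were narrow in this fit. Their widths rest mostly on the spread of other probe sets, with 13.0 prior against 1 residual degree of freedom. The 95% confidence interval of the log2 ratio lay within 1.5-fold in either direction for 45 of the 61 probe sets (73.8%), against 52.6% of all probe sets tested. The members were brighter than most, with a median mean intensity of 7904 against 2650. The median absolute log2 ratio was 0.15 over the member probe sets and 0.17 over all. Both ratios, that of set 1 and that of set 2, had the same sign for 37 of the 61 (60.7%), 18 higher and 19 lower, against 63.3% of all, 28.4% higher and 34.9% lower. The pools of the genotypes did not overlap for 17 of the 61 (27.9%), 7 higher and 10 lower in the null, against 32% of all, 15.1% higher and 16.9% lower.

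**Figure D1:**
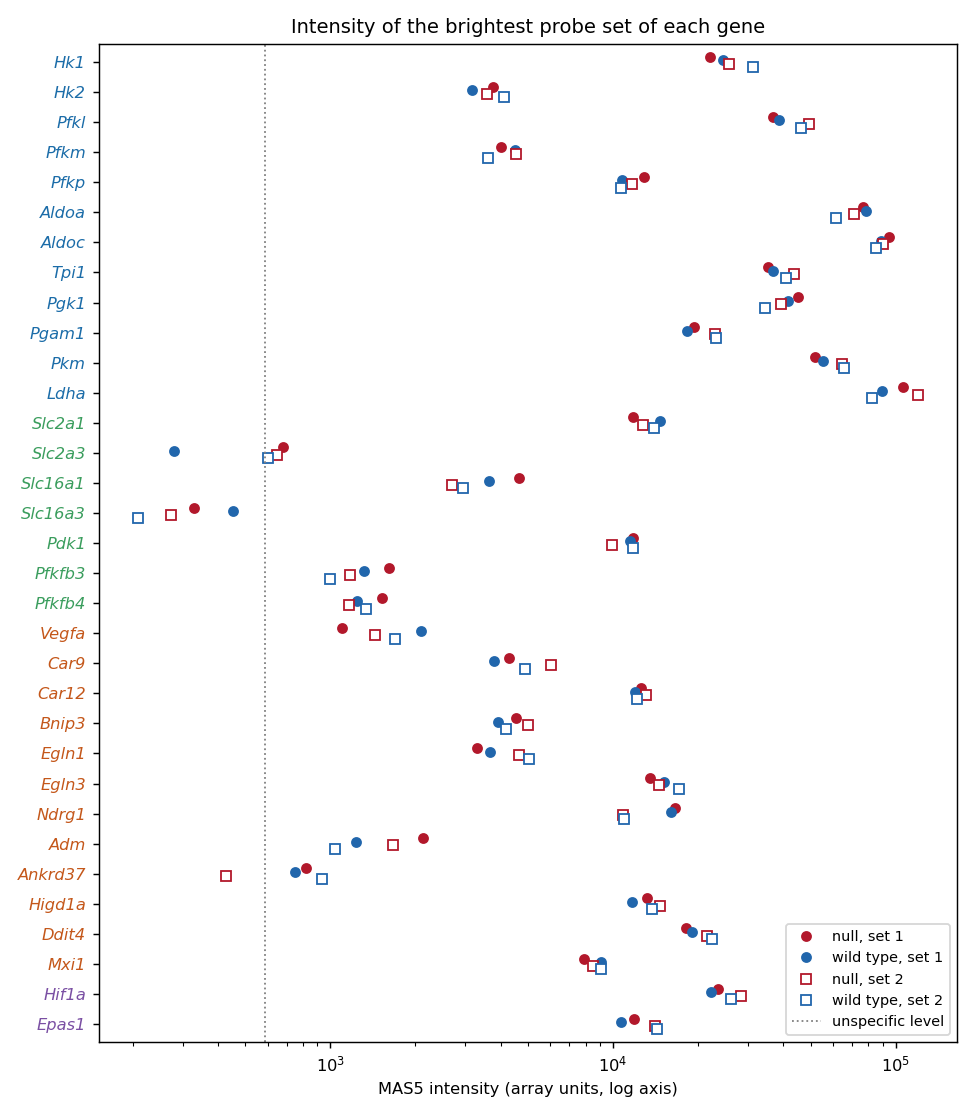
MAS5 intensity (array units, log axis) of the brightest probe set of each of the 33 genes in the 4 pools, with null in red, wild type in blue, filled circles for set 1 and open squares for set 2; gene names are coloured by role. Red and blue points lie close together for most genes. Both null pools lie right of both wild-type pools for Pfkp, Aldoc, Ldha, Slc2a3, Car12, Bnip3 and Adm. They lie left of both for Slc2a1, Vegfa, Egln3 and Mxi1. Slc16a3 lies wholly left of the dotted unspecific level of 585. Levels of different genes cannot be compared, since probes differ in brightness.

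Ldha, the lactate dehydrogenase subunit that favours lactate formation, was the glycolytic enzyme that rose. In set 1 its probe set read 106262 (null) and 89328 (wild type), and in set 2 the readings were 120360 and 82344. Both null pools were above both wild-type pools. Null exceeded wild type by a log2 ratio of 0.40 ± 0.10 (limma SE, 2 pools of each genotype), or 1.32-fold, with a limma adjusted p of 0.0217. The ratio was 0.25 in set 1 and 0.55 in set 2. The call was lost without the set term (adjusted p = 0.803), without the intensity trend (0.330) and with dim probe sets included (0.0618), and over all alternatives the adjusted p ran from 9.46e-04 to 1.

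The other 11 glycolytic enzymes measured did not pass on any probe set. The median log2 ratio of the 12 enzymes, each by its brightest probe set, was 0.06, with 0.02 in set 1 and 0.10 in set 2, beside -0.01 over the brightest probe sets of all genes tested. For 11 of the 12 the confidence interval lay within 1.5-fold in either direction, Ldha being the exception.

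Hexokinase, the first enzyme, was read by Hk1 and by Hk2, the form that HIF induces. Hk2 read 3747 and 3590 in the null pools of sets 1 and 2 and 3182 and 4108 in the wild-type pools, which overlapped, with a log2 ratio of 0.02 ± 0.14. Hk1 read 21954 and 25808 in the null and 24564 and 31324 in the wild-type pools. Its log2 ratio was -0.22 ± 0.08 (adjusted p = 0.144) there and -0.32 ± 0.10 (adjusted p = 0.0750) on its other probe set, with the null pool below its wild-type partner in all 4 pairs of values.

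Phosphofructokinase, the committed step, has liver, muscle and platelet forms. Pfkl, Pfkm and Pfkp had log2 ratios of 0.01 ± 0.09, 0.08 ± 0.14 and 0.19 ± 0.09 on their brightest probe sets. The dimmer probe sets of Pfkp stood far apart, at 0.55 ± 0.25 and -0.89 ± 0.39, so they do not describe the gene as a whole. Aldolase A (Aldoa) was covered by 5 probe sets from -0.22 to 0.15, and aldolase C (Aldoc) by 2, at 0.08 and 0.18. All 5 of Aldoa carry the array's mark for probes shared with other transcripts, so their signal may be split.

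In the lower part of the pathway the values lay close to 0. Tpi1 (triosephosphate isomerase) had 3 probe sets between -0.08 and 0.07. Pgam1 (phosphoglycerate mutase) was at 0.03 ± 0.08 and Pkm (pyruvate kinase) at -0.06 ± 0.08. Pgk1, phosphoglycerate kinase, whose promoter is shown above, was at 0.16, 0.17 and 0.17 on its 3 probe sets. Its brightest probe set read 45168 and 39406 in the null and 41647 and 34450 in the wild-type pools, with overlap, and the interval of the log2 ratio was -0.02 to 0.33 (adjusted p = 0.322).

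Among transporters and regulators, 0 of 9 probe sets tested passed in limma, where 7.3% of all did. At an unadjusted p under 0.05 there were 2, both of Slc2a1, beside 4645 of all 22519, a like share. Slc2a1, the main glucose transporter of epithelium, read 11779 and 12738 in the null and 14626 and 14004 in the wild-type pools. The groups did not overlap, and the log2 ratio was -0.22 ± 0.09 with an interval of -0.42 to -0.03 (adjusted p = 0.171). Its other 2 probe sets were at -0.21 ± 0.10 and -0.26 ± 0.12, and the null pool was the lower one in each set on all 3.

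The lactate carrier Slc16a1 had a log2 ratio of 0.11 ± 0.15, at 0.34 in set 1 and -0.12 in set 2. Pdk1, the kinase that inhibits pyruvate dehydrogenase, was at -0.11 ± 0.10, 0.06 ± 0.11 and -0.20 ± 0.17 on 3 probe sets. Pfkfb3 and Pfkfb4, which make the activator of phosphofructokinase, were at 0.26 ± 0.23 and 0.05 ± 0.23. Slc16a3, the lactate exporter that HIF induces, read 329 and 273 in the null and 450 and 208 in the wild-type pools, all within the unspecific level. The neuronal glucose transporter Slc2a3 had 4 probe sets, of which the brightest read 682 and 648 in the null pools and 279 and 603 in their wild-type partners, at or little above the unspecific level. Neither carrier could be assessed at these signals.

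**Figure D2:**
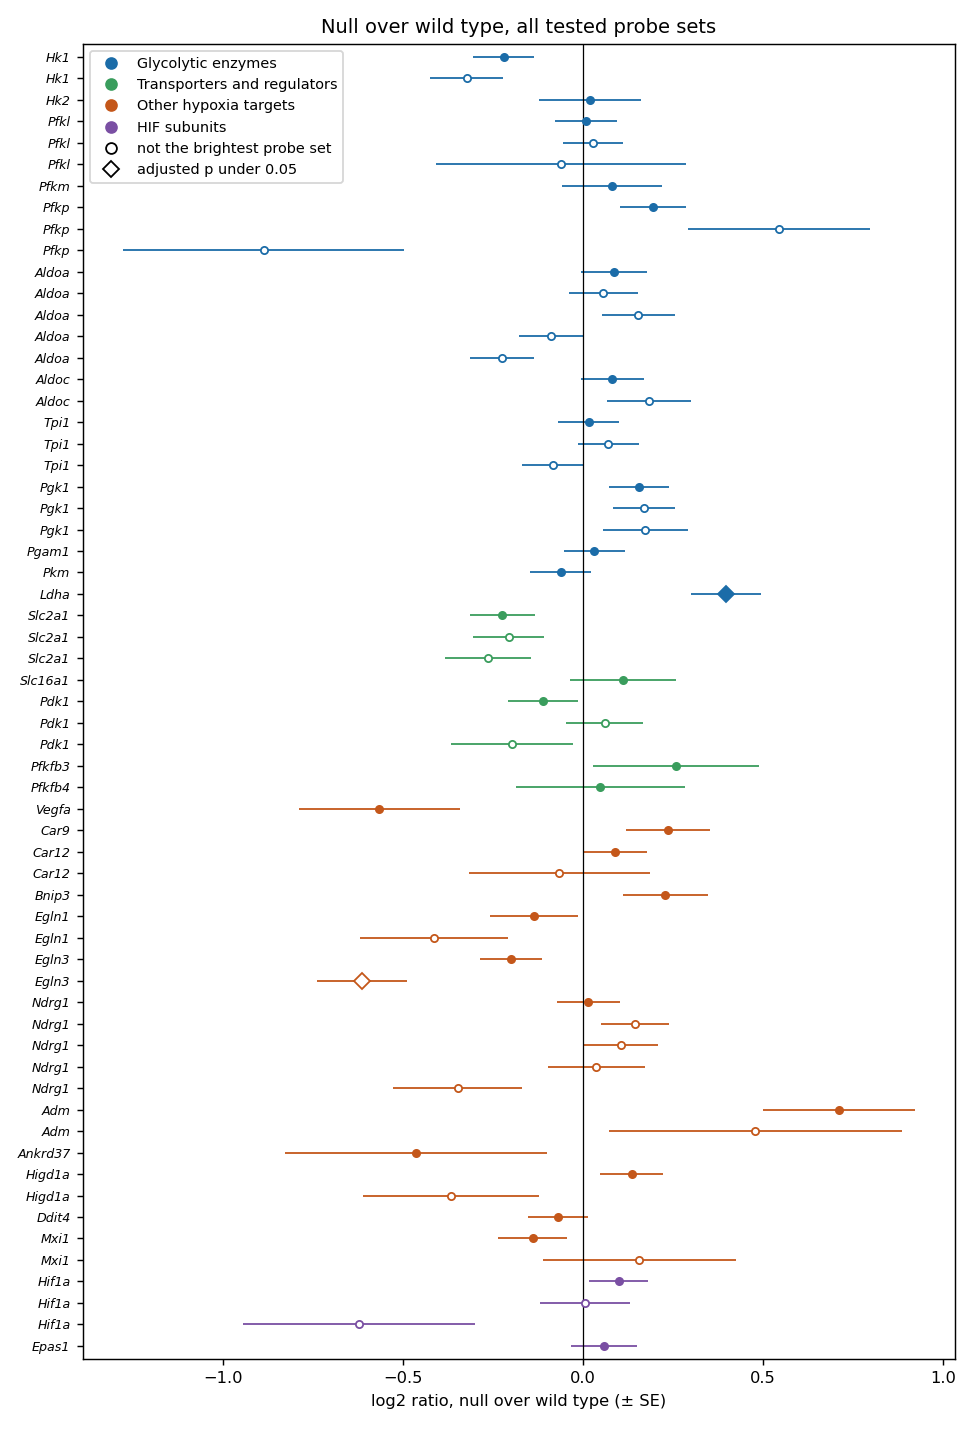
Log2 ratio of null over wild type with its limma standard error for all 61 tested member probe sets, 1 row each, coloured by role; filled symbols are the brightest probe set of a gene and diamonds passed an adjusted p of 0.05. Most glycolytic enzymes lie near 0, with Ldha at 0.40 and dim probe sets of Pfkp at 0.55 and -0.89, and the other hypoxia targets spread from -0.61 (Egln3) to 0.71 (Adm).

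Egln3, a prolyl hydroxylase that is itself a HIF target, was the member that fell, on 1 of its 2 probe sets. That probe set read 4039 and 3346 in the null pools of sets 1 and 2 and 5550 and 5748 in the wild-type pools. The groups did not overlap. The fitted log2 ratio was -0.61 ± 0.12 (limma SE, 2 pools of each genotype), so that wild type was 1.53-fold higher, with a limma adjusted p of 0.00718. The ratio was -0.45 in set 1 and -0.77 in set 2. The brighter probe set read 13530 and 14522 against 15185 and 17086, also without overlap, at a log2 ratio of -0.20 ± 0.09 (adjusted p = 0.202). The call of the dimmer probe set was lost without the set term (adjusted p = 0.653) and without the intensity trend (0.241), and over all alternatives the adjusted p ran from 0.00564 to 1.

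Adm, which encodes the vasodilator peptide adrenomedullin, was the only 1 of the 31 genes whose brightest probe set was at least 1.5-fold apart in the same direction in both sets, where 4.35% of all probe sets tested were (2.67% higher and 1.68% lower). It read 2121 and 1661 in the null and 1228 and 1039 in the wild-type pools, without overlap. The log2 ratio was 0.71 ± 0.21, or 1.64-fold, and it missed the threshold (adjusted p = 0.0589), which it passed after quantile normalization (0.0438); over all alternatives the adjusted p ran from there to 1. This brightest probe set of Adm carries the array's mark for probes shared with other transcripts, so its signal may be split. The second probe set, without the mark, disagreed between sets, reading 1039 against 422 in set 1 and 515 against 625 in set 2. On it 1 null and 1 wild-type value lay in the unspecific range.

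Vegfa, the endothelial growth factor, read 1101 and 1434 in the null and 2086 and 1695 in the wild-type pools. The null pools were both lower, at a log2 ratio of -0.57 ± 0.22 with an interval of -1.04 to -0.09 (adjusted p = 0.159). The difference was mostly that of set 1 (-0.90, against -0.23 in set 2). A second Vegfa probe set, below the filter, read 626 and 314 in the null and 481 and 448 in the wild-type pools. It was above the unspecific level on 1 array and did not repeat the fall of set 1. Car9, a tumor carbonic anhydrase and a standard marker of hypoxia, was at 0.24 ± 0.12. It read 4295 and 6025 in the null and 3799 and 4895 in the wild-type pools, with overlap, and its interval ran from -0.01 to 0.49 (adjusted p = 0.278). Car12, a second carbonic anhydrase, was at 0.09 ± 0.09.

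The mitophagy receptor Bnip3 had a log2 ratio of 0.23 ± 0.12. The mitochondrial protein gene Higd1a had one of 0.14 ± 0.09 on its brightest probe set and of -0.37 ± 0.25 on its other tested one. Ddit4, an inhibitor of mTOR, was at -0.07 ± 0.08. Mxi1, a repressor that antagonises Myc, was at -0.14 ± 0.10 and, on its other tested probe set, at 0.16 ± 0.27. Ndrg1, a stress-induced gene, had 5 probe sets from -0.35 to 0.15, of which the brightest was at 0.01 ± 0.09. Egln1, the main oxygen sensor, was at -0.14 ± 0.12 and -0.41 ± 0.21. Ankrd37 was at -0.46 ± 0.36, with 0.13 in set 1 and -1.05 in set 2, and its null pool of set 2 read 426, an unspecific value.

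The HIF subunits themselves had ratios near 0 on their brightest probe sets. The brightest probe set of Hif1a read 23534 and 28358 in the null and 22267 and 26116 in the wild-type pools, at 0.10 ± 0.08 with an interval of -0.08 to 0.28. Its dimmer tested probe sets were at 0.01 ± 0.12 and -0.62 ± 0.32 (adjusted p = 0.303). Epas1, encoding another alpha subunit, was at 0.06 ± 0.09. HIF is controlled mainly through the stability of its protein, which these arrays do not measure.

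**Figure D3:**
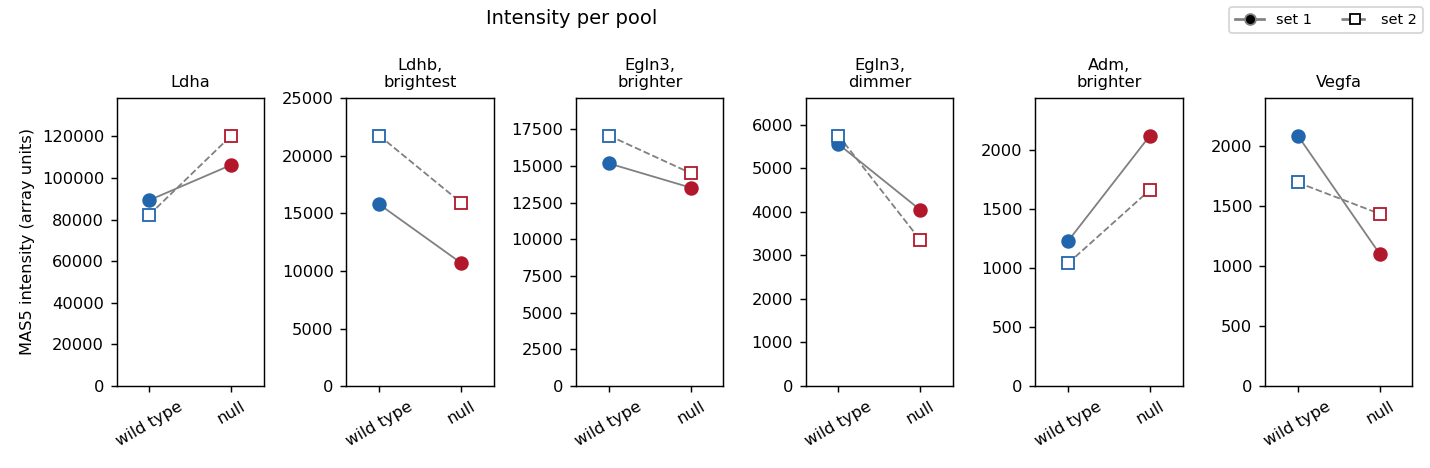
MAS5 intensity (array units, each axis from 0) in wild-type and null pools for 6 probe sets, with a line joining the pools of a set, solid for set 1 and dashed for set 2. Ldha and Adm climb from wild type to null in both sets, Ldhb, both probe sets of Egln3 and Vegfa descend in both, and of these 6 Ldha, Ldhb and the dimmer Egln3 passed an adjusted p of 0.05.

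The glycolytic enzymes and the other hypoxia targets were set side by side. The 12 enzymes had a median log2 ratio of 0.06 and the 12 hypoxia targets one of -0.03, a difference of 0.08. In set 1 the difference was -0.03 and in set 2 it was 0.13, so its sign changed between sets and its size was below their spread (SD 0.12). Of the enzymes, 4 were higher and 2 lower in both sets and 6 were mixed. Of the hypoxia targets, 5 were higher, 5 lower and 2 mixed. Over all 11514 genes tested, 3657 were higher, 3859 lower and 3998 mixed. The interval lay within 1.5-fold in either direction for 9 of the 12 hypoxia targets, for 4 of the 5 transporters and regulators tested and for both HIF subunits. The brightest probe sets of the hypoxia targets ranged from -0.57 (Vegfa) to 0.71 (Adm), and those of the enzymes from -0.22 (Hk1) to 0.40 (Ldha).

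**Figure D4:**
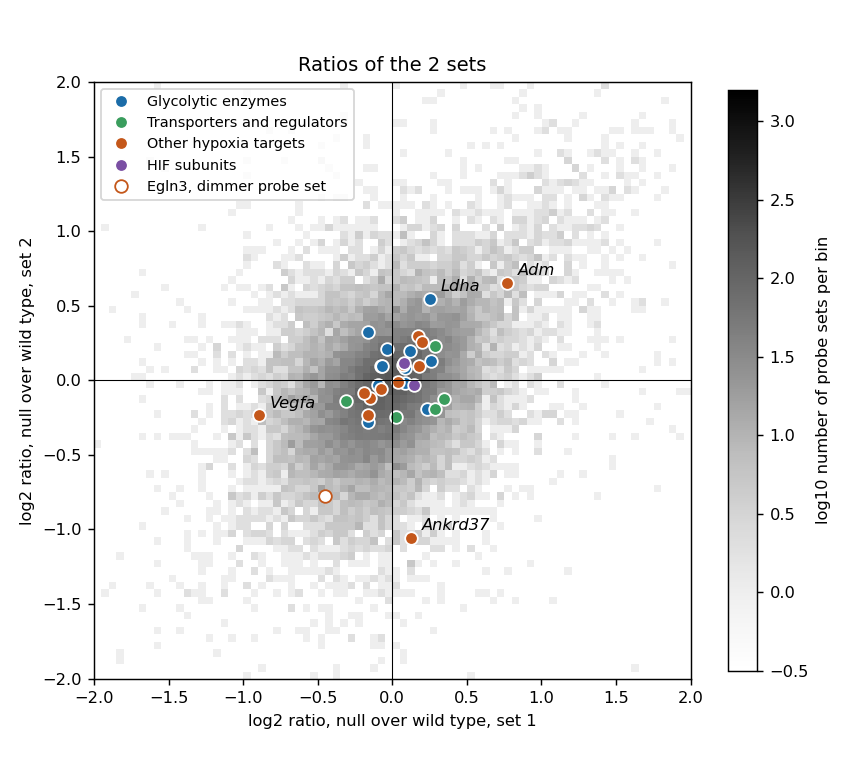
Log2 ratio of null over wild type in set 1 (x axis) and set 2 (y axis) for the brightest tested probe set of each of the 31 genes, over a grey density of all 22519 probe sets tested (log10 number per bin; 161 beyond 2 in either direction are not drawn). Most genes lie near the origin, Adm lies at 0.77 and 0.65, Vegfa at -0.90 and -0.23, Ankrd37 at 0.13 and -1.05, and the open point is the dimmer Egln3 probe set.

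Other genes of these pathways were read from lists set by known role. Every call in these lists, as for the members, was lost without the set term or without the intensity trend. Of 17 further genes of glycolysis, glycogen and the pentose phosphate branch that were tested, 0 rose and 1 fell, with a median log2 ratio of 0.06. By probe sets this was 3 of 31 called (9.68%), near the 7.3% of all. This was Ldhb, the lactate dehydrogenase subunit that favours pyruvate. Its brightest probe set read 10698 and 15946 in the null and 15800 and 21776 in the wild-type pools of sets 1 and 2. Those groups overlapped across sets, while the null pool was the lower one in each set. The log2 ratio was -0.50 ± 0.09 (adjusted p = 0.00219), with -0.56 in set 1 and -0.45 in set 2. On 2 further probe sets it fell by 0.42 and 0.40 on the log2 scale (adjusted p = 0.0123 and 0.0221), and on the fourth the ratio was -0.25 (adjusted p = 0.124). Ldhb and Ldha, the subunits of 1 enzyme, thus passed in opposite directions.

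Of 26 genes of pyruvate entry and the tricarboxylic acid cycle, 4 rose and 0 fell, with a median of 0.07. They were Pcx (pyruvate carboxylase) at 0.64 ± 0.15, Dld at 0.37 ± 0.10, Mdh1 at 0.33 ± 0.08 (0.08 ± 0.10 on its brightest probe set) and Sucla2 at 0.32 ± 0.09, with adjusted p from 0.0182 to 0.0465. Dld and Sucla2 missed the threshold after quantile or cyclic loess normalization, and these and Mdh1 missed it with dim probe sets included. By probe sets this was 4 of 48 called (8.33%), also near the share of all.

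Of 11 genes of the HIF machinery, 0 rose and 2 fell, each on 1 probe set. By probe sets this was 2 of 23 (8.70%), beside 7.3% of all. Arnt, the constant partner, fell by 0.61 ± 0.15 on a dimmer probe set (adjusted p = 0.0276) and stood at -0.08 ± 0.11 on its brightest. Crebbp, a coactivator, fell by 0.47 ± 0.10 (adjusted p = 0.0109), and its other 2 tested probe sets were at -0.32 and -0.38 (adjusted p = 0.0587 and 0.144). The called probe set of Crebbp also differed between sets, at a log2 ratio of set 2 over set 1 of -0.98. Its brightest was at 0.03 there. The part of RNA quality, which differed between the sets and between the genotypes in set 2, in this call was not tested.

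Of the further hypoxia targets, 10 of 50 probe sets were called (20.0%), 7 higher and 3 lower, where 7.3% of all were, 4.05% higher and 3.25% lower. This list too was chosen with earlier results of these data known, so its share above that of all is no independent result. By genes 6 of 27 rose and 3 fell, with a median log2 ratio of 0.07 on the brightest probe sets. Over all 50 probe sets the median was -0.07. Lox, which crosslinks collagen, read 7036 and 8974 in the null and 3173 and 3540 in the wild-type pools, without overlap. It rose 2.35-fold (log2 1.23 ± 0.11, adjusted p = 9.20e-06), and 2.21-fold on a dimmer probe set. Plod2, a collagen lysyl hydroxylase, rose by a log2 of 0.45 ± 0.11. Angptl4, an inhibitor of lipoprotein lipase known from adipose tissue, rose by 0.69 ± 0.16, and Pgf, placental growth factor, by 0.50 ± 0.14. The transferrin receptor Tfrc and the disulfide oxidase Ero1a rose by 0.35 ± 0.09 and 0.40 ± 0.11, while another Ero1a probe set was at -0.42. Ccng2, a cyclin of arrested cells, fell by 0.49 ± 0.10. Errfi1, a feedback inhibitor of ErbB receptors, fell by 0.42 ± 0.12 on 1 probe set, and its brightest was at 0.07. Cited2, named after its values were seen, fell by 0.31 ± 0.09 on 1 probe set (adjusted p = 0.0393) and stood at -0.02 on its brightest. The called probe sets of Errfi1 and Cited2 also had log2 ratios of set 2 over set 1 of -1.66 and -0.84. Their brightest were at 0.16 and 0.51 there, and the part of RNA quality in these calls was not tested. Pgf, Ero1a, Errfi1 and Cited2 missed the threshold with dim probe sets included, as did Ero1a after cyclic loess and Errfi1 after either normalization.

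Marker genes of other cell types moved with genotype in the same pools. Over all 11514 genes tested, 674 rose and 563 fell on at least 1 probe set. As over all probe sets, no marker call held without the set term or without the intensity trend. All 19 fibroblast and matrix markers tested rose, with a median log2 ratio of 1.11, and their summed intensity was 524305 to 617906 in the null and 257277 to 286529 in the wild-type pools. Of 8 adipocyte markers 6 rose and 0 fell (sum 112712 to 119009 against 48728 to 49667), and Lep was unspecific on all arrays. Sums are over the brightest probe set of every marker matched, dim ones included. Of 14 endothelial and pericyte markers 6 rose and 0 fell (43174 to 44994 against 26399 to 28267), and of 10 skeletal muscle markers 3 rose and 0 fell (19427 to 19538 against 14167 to 15497). Cell cycle genes rose in 10 of 16 cases (137890 to 142344 against 99696 to 102373).

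Among epithelial markers, 6 of 11 basal and myoepithelial genes fell and 0 rose (sum 119717 to 139966 in the null against 156592 to 172663 in the wild-type pools). Of 14 luminal genes 4 rose and 1 fell on any probe set (sum 569969 to 594962 against 526697 to 553556). On their brightest probe sets 3 rose and 0 fell, and the median log2 ratio was -0.08. By direction 6 of these were higher and 8 lower in both sets. Of 11 macrophage genes 3 rose and 1 fell (196209 to 224050 against 188708 to 222784). The lymphocyte, neutrophil and erythrocyte lists had 3 or fewer genes bright enough to test each, with 1 B cell gene that rose, 1 that fell and 1 neutrophil gene that fell (neutrophil sum 10670 to 11159 against 34165 to 37410). No marker was at 0, and Cxcr2, Elane, Mpo, S100a9, Itgam, Cd2, Cd3d, Cd3g, Cd4, Cd79a, Ms4a1, Pax5, Hba-a1 and Slc4a1 were unspecific on all arrays, as was Tyms of the cell cycle list. The part of these cell types in the values of Ldha, Ldhb, Egln3, Lox, Plod2 and Angptl4 was not tested. In bulk tumor RNA, fewer cells of a type and less RNA per cell cannot be told apart.

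Between the sets of pools more members passed the test than between genotypes. In the same fit, 21 of the 61 probe sets passed for set 2 over set 1 (34.4%, against 23.6% of all), 12 higher and 9 lower in set 2, where 11.1% of all were higher and 12.5% lower. All these calls were lost without the intensity trend. Car9 was 1.34-fold higher in set 2 (log2 0.42 ± 0.12, adjusted p = 0.0180), with both pools of set 2 above both of set 1. Pkm and Pgam1 rose by a log2 of 0.29 each and Epas1 by 0.34, while Slc16a1 fell by 0.54. Ldha was at 0.03 and Vegfa at 0.04.

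For 3 genes, Hk1, Pfkl and Pdk1, probe sets of the same gene passed in opposite directions. Hk1 read 10062 and 11714 in the pools of set 1 and 4767 and 6423 in those of set 2 on 1 probe set, a fall by 0.97 on the log2 scale, and rose by 0.29 on its brighter one. Ndrg1 fell on 3 of its 5 probe sets, by 1.20, 0.86 and 0.58, and stood at 0.07 on another. The ratio of 3' to 5' Gapdh signal also differed between the sets, at 0.869 to 0.873 in set 1 and 1.57 to 2.13 in set 2, and its part in these differences was not tested. Other differences between the sets are not given in the sources used here.

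**Figure D5:**
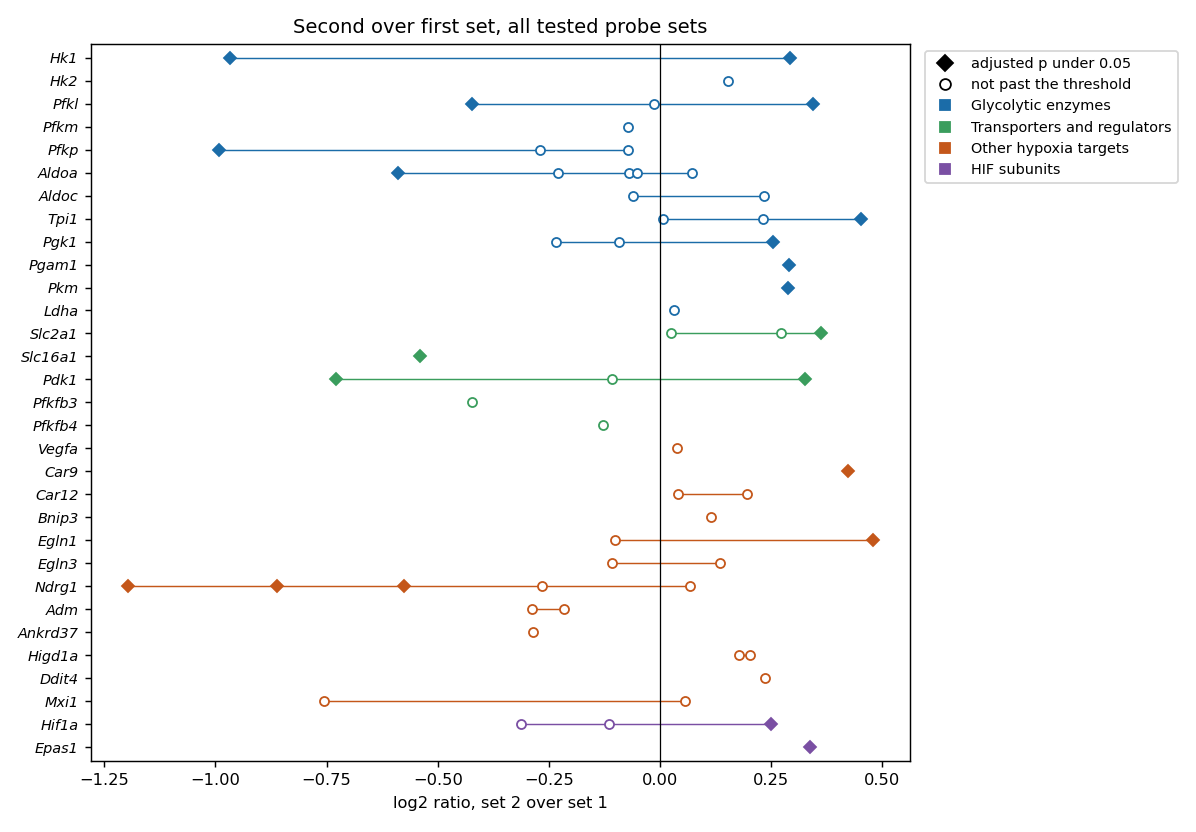
Log2 ratio of set 2 over set 1, at equal genotype, for each tested probe set (symbols) of the 31 genes, with a line joining the probe sets of a gene; filled diamonds passed an adjusted p of 0.05. Hk1, Pfkl and Pdk1 have diamonds on both sides of 0, Ndrg1 reaches -1.20, and Ldha, Egln3 and Adm have none.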

How the data were processed

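RNA of 4 pools was measured on 1-colour arrays. Per the labels' protocols, 100 mg of tissue gave total RNA, of which 6 ug was labelled. The deposited values are linear intensities made by the authors with MAS5, per the submitters' processing notes (version not given in the sources used here). Their means after trimming 2% at each end were 2500.01 on every array, so they were used as deposited. Symbols came from the platform annotation: 1 for 34945 probe sets, several for 932 and none for 9160.

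Intensities were turned into log2(value + 44), 44 being the 10th percentile of all values, which understates the change of dim genes. Of 45101 probe sets 64 controls were left out, and those whose mean over the arrays reached the median, 591, entered the test. The fit was limma 3.58.1 in R 4.3.3, lmFit and eBayes (trend = TRUE), on genotype plus set. It was also run on simulated data with independent noise of the fit's own spread. That checks the code and not the assumptions of the set term and the trend. Set entered as a block since the design text of the series pairs the pools. Deviations from the genotype means correlated at 0.605 within sets, the same for both by construction. The fit has 1 residual degree of freedom and a prior of 13.0 from eBayes, so errors lean on the spread of other probe sets. With 4 arrays no exact permutation test can pass, and the number of arrays limits the precision.

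The brightest probe set by mean speaks for a gene, except in counts of genes that rose or fell, where any called probe set counts. All members are named, with values per pool for those past the threshold or at least 1.5-fold apart the same way in both sets, those with opposite changes of at least 1.25-fold, and others for their role, chosen after their values were seen. Up to 8 called genes per further list are named. Members and lists were chosen with earlier results of these data known. The alternatives tried changed the normalization (quantile, cyclic loess), filter, pseudocount, set term, trend and choice of probe set, used each set alone and left out each array. All 4 columns of values were mapped.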

Additional observations from a re-analysis of the deposited data

Results flagged for a closer look

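Slc16a3, the lactate exporter, had opposite ratios in the sets: its log2 ratio of null over wild type was -0.41 in set 1 and 0.33 in set 2. The difference between the sets was not tested, and all 4 readings, from 208 to 450, lay within the unspecific level of 585.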

How the results depend on the processing

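Neither call of the members held under every alternative. Member probe sets called were 2, and 3 with quantile normalization, 2 with cyclic loess, other pseudocounts or a filter at the 75th percentile, and 1 with no filter (Egln3). With no replicate block, that is without pairing the pools by set, limma called 0 members (3 at an unadjusted p under 0.05), 0 probe sets of the pathway lists (8) and 0 of all probe sets (1280). With no intensity trend it called 0 members (5), 0 in the pathway lists (27), 0 of all (3486) and 0 between sets (6183 at an unadjusted p under 0.05). The pathway lists had 19 calls, and 12 with no filter on dim probe sets. Leaving out 1 array, which also drops the block since no residual degree of freedom is left with it, gave 4 to 27 calls over all probe sets, against 1645, and 0 for members (0 to 4 unadjusted) and for the pathway lists. The lone pool of an arm is then assumed to vary like the others. The log2 ratio of Errfi1 was 0.39 and 0.43, that of Cited2 0.11 and 0.11 and that of Crebbp 0.073 in such fits, opposite to the paired ones; without the block, the difference between sets enters the ratio by construction. The difference between the medians of glycolytic enzymes and other hypoxia targets stayed between 0.01 and 0.09 in these fits and in the other normalizations, filters and pseudocounts, and was -0.03 in set 1 alone and 0.13 in set 2 alone. Among members not called, 34 values changed sign under an alternative. Signal limits what can be said of Slc2a3 and Slc16a3, and 9 member probe sets were unspecific on all 4 arrays.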
